A study of Mus musculus with 2 samples.

Results

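A set of 10 transcription factors and cofactors of B lineage commitment was followed here: *Pax5*, *Ebf1*, *Pou2af1*, *Pou2f1*, *Pou2f2*, *Lef1*, *Bach2*, *Bcl11a*, *Sox4* and *Myb*. They were taken as a list of gene names, and their 22 protein-coding RefSeq transcripts (accessions beginning with NM) were found among the 26968 such transcripts in the deposited table by way of a RefSeq gene table. The 10 genes are part of 20250 named protein-coding genes.

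The data are strand-specific RNA-seq of total RNA depleted of ribosomal RNA, with 1 library from pre-pro-B cells and 1 library from pro-B cells. The pre-pro-B cells were *Ebf1* -/-, came from the liver of female mid-gestation embryos and grew in Il-7 (5 ng/mL), Scf (10 ng/mL) and Flt3l (10 ng/mL). The pro-B cells were *Rag2* -/-, came from the bone marrow of adult males and grew in Il-7 (5 ng/mL) alone. Both were of C57BL/6 background and were cultured on OP-9 stromal cells, a bone marrow-type mouse stromal line that supports lymphoid growth, from which they were washed off and then left in a fresh flask so that stromal cells carried along could attach, before RNA extraction. The number of animals or of cultures behind each library is not given in the sources used here. Cell stage, genotype, sex, age, tissue and cytokines all differ between the libraries and cannot be told apart. No difference has a replicate check, and no p-value was used here.

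Commitment to the B lineage proceeds through a small set of DNA-binding proteins. E proteins switch on *Ebf1*, Ebf1 opens B lineage genes and switches on *Pax5*, and Pax5 both activates B cell genes and holds down genes of other lineages. Pou2f1 (Oct-1) and Pou2f2 (Oct-2) bind the octamer element of immunoglobulin promoters, where Pou2af1 (OBF-1, also Bob.1) joins them as a coactivator. Lef1 carries Wnt signals together with beta-catenin and is needed for normal growth of pro-B cells. Myb, Sox4, Bcl11a and Bach2 are required at early lymphoid or B cell stages and are already active in progenitors.

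Levels are given as FPKM, fragments scaled to transcript length in kilobases and to the reads of the library, as deposited by the authors. The bounds in brackets are the 95% confidence interval that Cuffdiff's model gave for each transcript, and they do not come from replicates. Each of the 22 transcripts had the quantification status OK in both libraries. Where a gene has several transcripts their FPKM were summed, and a sum carries no interval. Differences are given as log2 of (pro-B FPKM + 1) over (pre-pro-B FPKM + 1), and a gene was called higher or lower at 2-fold or more on that scale. The labels give about 90000000 reads per sample. If all were counted, 3 fragments amount to an FPKM of 0.0276 for the short *Pax5* transcript (1208 bases). For the longest *Pou2f1* transcript (13050 bases) they amount to 0.00255. With fewer counted these levels are higher.

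At the limit of 2-fold, 5 of the 10 genes were called higher in the pro-B library (*Pou2af1*, *Pax5*, *Lef1*, *Ebf1* and *Pou2f1*), 1 was called lower (*Pou2f2*), and 4 lay within 2-fold (*Bach2*, *Myb*, *Sox4* and *Bcl11a*). All 10 reached an FPKM of 1 in both libraries. Among the 10528 genes that reached an FPKM of 1 in a library, 12.2% were called higher and 19.1% were called lower. At a limit of 4-fold, 4 of the 10 were higher, against 4.29% of all these genes. The median log2 difference of the 10 was 0.82, beside -0.14 for all genes. These are bulk libraries, in which fewer cells that use a gene and less of its RNA per cell cannot be told apart.

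**Figure D1:**
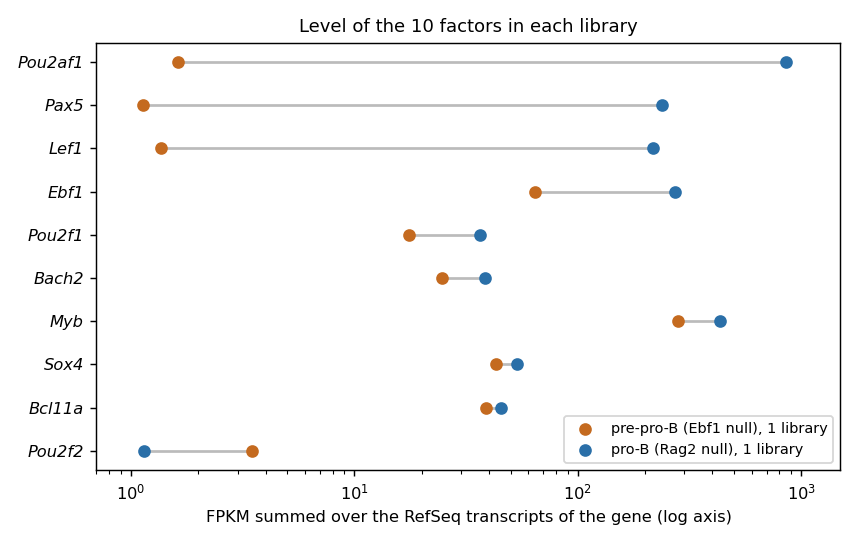
FPKM summed per gene on a log axis for the 10 factors, with 1 point per library and no error bars because sums carry none; genes are ordered by their log2 difference. *Pou2af1*, *Pax5* and *Lef1* lie between 1.13 and 1.63 in the pre-pro-B library and between 218 and 860 in the pro-B library, while *Bach2*, *Myb*, *Sox4* and *Bcl11a* lie close together in both.

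*Pax5*, the paired-domain factor of B cell identity, and *Pou2af1*, the octamer coactivator, lay just above an FPKM of 1 in the pre-pro-B library. In the pro-B library both stood near the top of all genes. The single *Pax5* transcript (NM_008782, gene on the minus strand of chr4:44544017-44724318 in the GENCODE annotation of mm9, as for all gene positions given here) had an FPKM of 1.13 (0 to 3.47) in the pre-pro-B library and of 239 (15.5 to 495) in the pro-B library, a log2 difference of 6.82. *Pax5* went from place 9946 to place 175 among the 20250 genes ordered by FPKM. Of these genes, 10528 reached an FPKM of 1 in a library and 5855 were listed at 0 in both. The single *Pou2af1* transcript (NM_011136, plus strand of chr9:51021795-51048184) had an FPKM of 1.63 (0 to 3.25) and of 860 (118 to 1597), a log2 difference of 8.36. It went from place 9583 to place 21. For both genes the interval in the pro-B library lay wholly above that in the pre-pro-B library.

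*Lef1* (plus strand of chr3:130813389-130927274) showed a difference of like size. Its summed FPKM was 1.36 in the pre-pro-B library and 218 in the pro-B library, a log2 difference of 6.54, and its place went from 9765 to 202. Its 3 transcripts contributed unequally. NM_010703 (3657 bases) had an FPKM of 0.193 (0 to 0.881) and of 103 (1.69 to 242), and these intervals did not overlap. NM_001276403 (2305 bases) had an FPKM of 1.16 (0 to 3.39) and of 110 (0.0324 to 301), with overlap. NM_001276402 (3532 bases) was worth less than 1 fragment in the pre-pro-B library and had an FPKM of 5.07 (0 to 28.9) in the pro-B library. All 3 transcripts were higher in the pro-B library, and the division of *Lef1* shifted between them: NM_010703 held 14.2% of the summed FPKM in the pre-pro-B library and 47.4% in the pro-B library, and NM_001276403 held 85.8% and 50.3%. The pre-pro-B shares rest on about 305 fragments in all. Counted per fragment, NM_001276403 held 79.1% and 39.0%.

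*Ebf1* is the gene targeted in the pre-pro-B cells. Its transcript (NM_007897, plus strand of chr11:44430819-44821593) had an FPKM of 64.0 (2.78 to 149) in the library from *Ebf1* -/- cells and of 273 (8.50 to 729) in the pro-B library, 4.26-fold and with a log2 difference of 2.07. The intervals overlapped. In the null library *Ebf1* stood at place 984, above 95.1% of all genes, and above 8 of the other 9 factors. The FPKM covers the whole transcript, and the values do not show which exons the reads came from; how the null allele was built is not given in the sources used here. *Ebf1* is also used by stromal and fat cells, so markers of stroma were read beside it. Of 8 stromal markers, 2 reached an FPKM of 1 in the pre-pro-B library, *Pdgfrb* at 15.9 and *Sparc* at 1.13. *Lum* and *Dcn* were listed at 0 there, and the 3 collagen genes *Col1a1*, *Col1a2* and *Col3a1* lay between 0.207 and 0.707. The 8 summed to 18.5 in the pre-pro-B library, most of it from *Pdgfrb*, and to 8.56 in the pro-B library. *Pdgfrb*, at 0.377 in the pro-B library, was the only marker of the 8 that was lower there. In that library 3 reached an FPKM of 1, *Col1a2* at 2.82, *Sparc* at 2.81 and *Col3a1* at 1.13. *Col1a1*, *Pdgfra* and *Lum* were also higher there but stayed under 1, and *Dcn* was listed at 0 in both. The part of such cells in the *Ebf1* level was not tested.

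Genes that Ebf1 and Pax5 are known to act on were read beside these levels. Of 18 listed B lineage genes that Ebf1 or Pax5 activate, 18 were called higher in the pro-B library, with a median log2 difference of 5.14. Among all genes that reached an FPKM of 1 in a library, 12.2% were called higher and 19.1% lower. Of the 18, 10 reached an FPKM of 1 in both libraries. The rest passed that filter through the pro-B library alone, so they could not be called lower. *Igll1*, *Vpreb3* and *Vpreb1*, parts of the surrogate light chain or its relatives, had FPKM of 1.17, 2.02 and 0.359 in the pre-pro-B library and of 798, 877 and 335 in the pro-B library. Of 9 listed genes that Pax5 holds down, 8 reached an FPKM of 1 in a library and 8 were called lower, with a median of -4.85. Only 2 of the 8 reached an FPKM of 1 in both libraries. The rest passed the filter through the pre-pro-B library alone, so they could not be called higher. Among the 8, the cytokine receptor *Flt3* had an FPKM of 303 and 0.916 and the chemokine *Ccl3* 120 and 0.384. The membrane glycoprotein *Emb* had 94.7 and 1.21, and the T cell costimulatory receptor *Cd28* 48.8 and 0.209. The other gene, *Csf1r*, was under an FPKM of 1 in both libraries. These counts are descriptions, since the values of several of these genes were known when the lists were drawn up.

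The labelled cell types were read against their markers. The 5 B lineage markers summed to an FPKM of 3.86 in the pre-pro-B library and 1660 in the pro-B library, and the 5 lymphoid progenitor markers to 1372 and 429. Of the latter *Il7r*, the Il-7 receptor chain, had 349 and 424, while *Kit*, *Flt3*, *Cd34* and *Ly6d* lay between 78.7 and 534 in the pre-pro-B library and between 0.377 and 1.99 in the pro-B library. The 5 myeloid markers summed to 61.0 and 6.52. The 5 T lineage markers summed to 39.1 and 0.137, of which *Cd3g* alone made 36.8 in the pre-pro-B library, while *Cd3e* stood at 0.239. Whether cells of these other kinds took part in any difference described here was not tested.

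**Figure D2:**
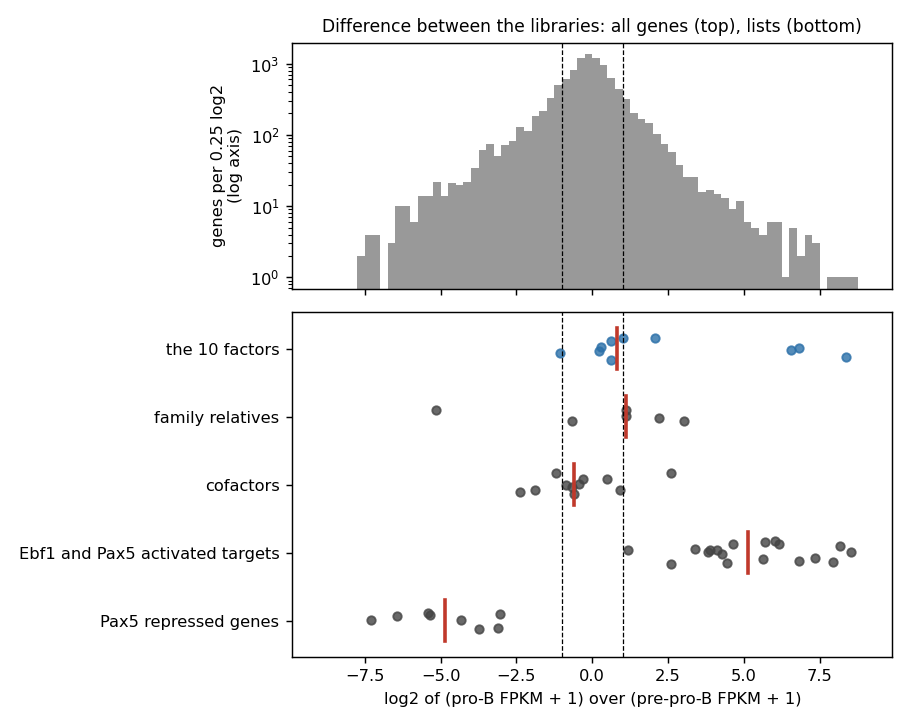
Top, number of genes per bin of 0.25 of the log2 difference, for the 10528 genes that reached an FPKM of 1 in a library (log axis); bottom, each point is a gene of a list, red bars are list medians and dashed lines mark 2-fold. The 10 factors spread from -1.06 to 8.36, the 18 activated targets all lie right of the upper line, and the 8 repressed genes all lie left of the lower line.

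The regions before the start sites of the factors were read for motifs of the factors themselves. RefSeq's promoter table (build GRCm38.p6) holds 16 start sites of the 10 genes, and the 250 bases before each matched mm9 exactly and at a single place. Windows of 5 start sites are shown, from genes past the 4-fold limit and from *Bach2*, whose window holds a Lef1 motif. The outermost *Pax5* and *Ebf1* windows lie wholly within an untranslated exon of the mm9 gene annotation and are not shown. The windows of *Pou2af1* (chr9:51021545-51021794) and of the outermost *Lef1* start (chr3:130812965-130813214) lie outside the annotated genes, and each ends right before the first base of the deposited locus. An inner *Ebf1* window (chr11:44433480-44433729), an inner *Lef1* window (chr3:130858962-130859211) and the *Bach2* window (chr4:32504160-32504409) are intronic in that annotation; the *Bach2* window ends right before its deposited locus. All are read 5′ to 3′ on the plus strand, the strand of these genes, and capitals mark the Lef1 and Tcf core CTTTGA, which reads TCAAAG where it lies on the minus strand.
Pou2af1: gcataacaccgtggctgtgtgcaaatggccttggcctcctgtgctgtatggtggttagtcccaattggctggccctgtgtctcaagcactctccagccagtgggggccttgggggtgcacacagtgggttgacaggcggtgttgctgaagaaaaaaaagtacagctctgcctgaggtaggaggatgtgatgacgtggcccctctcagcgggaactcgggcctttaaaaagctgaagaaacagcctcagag
Lef1, outermost start: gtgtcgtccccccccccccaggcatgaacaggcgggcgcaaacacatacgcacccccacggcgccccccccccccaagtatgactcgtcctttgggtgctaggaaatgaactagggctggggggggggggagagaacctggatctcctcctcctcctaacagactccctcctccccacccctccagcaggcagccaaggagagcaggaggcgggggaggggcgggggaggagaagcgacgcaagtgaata
Lef1, inner start: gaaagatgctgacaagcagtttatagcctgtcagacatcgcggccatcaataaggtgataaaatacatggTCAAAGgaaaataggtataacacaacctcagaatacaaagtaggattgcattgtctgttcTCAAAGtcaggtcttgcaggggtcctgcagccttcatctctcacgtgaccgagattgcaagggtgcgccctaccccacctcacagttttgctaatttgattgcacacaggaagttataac
Ebf1, inner start: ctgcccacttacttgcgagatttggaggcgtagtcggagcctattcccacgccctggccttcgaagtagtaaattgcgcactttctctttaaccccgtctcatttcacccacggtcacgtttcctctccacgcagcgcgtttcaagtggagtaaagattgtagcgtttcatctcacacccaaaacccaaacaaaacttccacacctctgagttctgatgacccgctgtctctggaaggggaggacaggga
Bach2: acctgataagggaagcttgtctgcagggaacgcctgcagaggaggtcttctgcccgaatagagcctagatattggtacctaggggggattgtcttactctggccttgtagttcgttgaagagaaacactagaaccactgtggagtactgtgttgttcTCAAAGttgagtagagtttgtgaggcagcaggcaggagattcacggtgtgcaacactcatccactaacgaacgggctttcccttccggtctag

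The motif letters searched on both strands were CCCNNGGG for the core bound by Ebf1, ATGCAAAT for the octamer bound by Pou2f factors, CAGGTG for an E box and CTTTGA for the Lef1 and Tcf core. None of the 16 windows held the Ebf1 core, the octamer or this E box. Over all 32851 start sites of the table these were present in 11.8%, 1.6% and 17.2%. The Lef1 core was present in 13.8% of all windows and in 3 of the 16. Its matches began 180 and 120 bases before the inner *Lef1* start shown, 93 bases before the *Bach2* start and 13 bases before an inner *Pou2f1* start. A missing match says only that these exact letters are not in the window, and a match is not a measured site.

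In the octamer group, *Pou2f1* and *Pou2f2* differed in opposite directions beside the steep difference of their coactivator *Pou2af1*. The summed FPKM of *Pou2f1* (minus strand of chr1:167795285-167932809) was 17.6 in the pre-pro-B library and 36.4 in the pro-B library, a log2 difference of 1.01, just past the limit, and it was 0.94 when both libraries were rescaled to the same total. Of its 4 transcripts (12906 to 13050 bases long) NM_198933 had an FPKM of 6.95 (0.0366 to 18.5) and 22.4 (0.493 to 51.2), and NM_198934 had 1.68 (0 to 7.42) and 6.33 (0 to 22.5). NM_198932 had 7.25 (0.0221 to 18.9) and 6.05 (0 to 21.2), and NM_011137 had 1.73 (0 to 7.37) and 1.68 (0 to 8.33). The higher sum of *Pou2f1* lay in NM_198933 and NM_198934, with overlapping intervals throughout. The share of NM_198933 was 39.5% in the pre-pro-B library and 61.4% in the pro-B library.

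*Pou2f2* (minus strand of chr7:25877472-25917507) was the lowest of the 10 in the pro-B library and the only one called lower there. Its summed FPKM was 3.47 in the pre-pro-B library and 1.14 in the pro-B library, a log2 difference of -1.06. NM_001163556 made up 82.7% of it in the pre-pro-B library and 99.99% in the pro-B library, with an FPKM of 2.87 (0 to 6.82) and 1.14 (0 to 2.9994). NM_001163555 had an FPKM of 0.599 (0 to 2.61) in the pre-pro-B library and was listed at 0 in the pro-B library. With the most abundant transcript alone the log2 difference of *Pou2f2* was -0.85, within 2-fold. The other 2 transcripts were worth less than 1 fragment in both libraries. In the pro-B library the FPKM of *Pou2f1* was 96.9% of the sum over *Pou2f1*, *Pou2f2* and *Pou2f3*, against 83.5% in the pre-pro-B library, and *Pou2f3* did not exceed 0.0272.

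*Myb*, *Sox4*, *Bcl11a* and *Bach2* had FPKM of 24.6 or more in both libraries and lay within 2-fold, each somewhat higher in the pro-B library. *Myb* (minus strand of chr10:20844736-20880790), a regulator of progenitor growth, was the highest of the 10 in the pre-pro-B library and the second in the pro-B library, with a summed FPKM of 280 and 431 and a log2 difference of 0.62. Its transcript NM_010848 had an FPKM of 257 (8.65 to 558) and 366 (4.17 to 850). NM_001198914 had 22.9 (0 to 106) and 65.5 (0 to 259), and its share was 8.19% in the pre-pro-B library and 15.2% in the pro-B library. Both *Myb* transcripts were higher in the pro-B library, and their intervals overlapped.

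*Sox4* (minus strand of chr13:29040788-29045582), an HMG-box factor, had an FPKM of 43.2 (1.71 to 99.1) and 53.4 (2.21 to 117), a log2 difference of 0.30. *Bach2* (plus strand of chr4:32325779-32673083), a repressor that pairs with small Maf proteins, had an FPKM of 24.6 (1.44 to 48.6) and 38.6 (2.28 to 78.5), a log2 difference of 0.63. In both genes the intervals overlapped over most of their range. *Bcl11a* (plus strand of chr11:23978056-24074123), a zinc finger factor of early lymphoid cells, had a summed FPKM of 39.0 and 45.1, a log2 difference of 0.21 and the smallest of the 10. Its long transcript NM_001242934 (6112 bases) had an FPKM of 24.0 (1.68 to 47.2) and 26.6 (0.642 to 52.8), and the short NM_001159289 (1825 bases) had 14.1 (0 to 51.9) and 16.2 (0 to 57.1). NM_001159290 had 0.848 (0 to 3.12) and 2.25 (0 to 12.0), and NM_016707 was listed at 0 in both. The division of *Bcl11a* hardly moved, with 61.7% and 59.0% of its FPKM in the long transcript. Per fragment rather than per kilobase, that transcript held 84.5% and 83.2%.

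**Figure D3:**
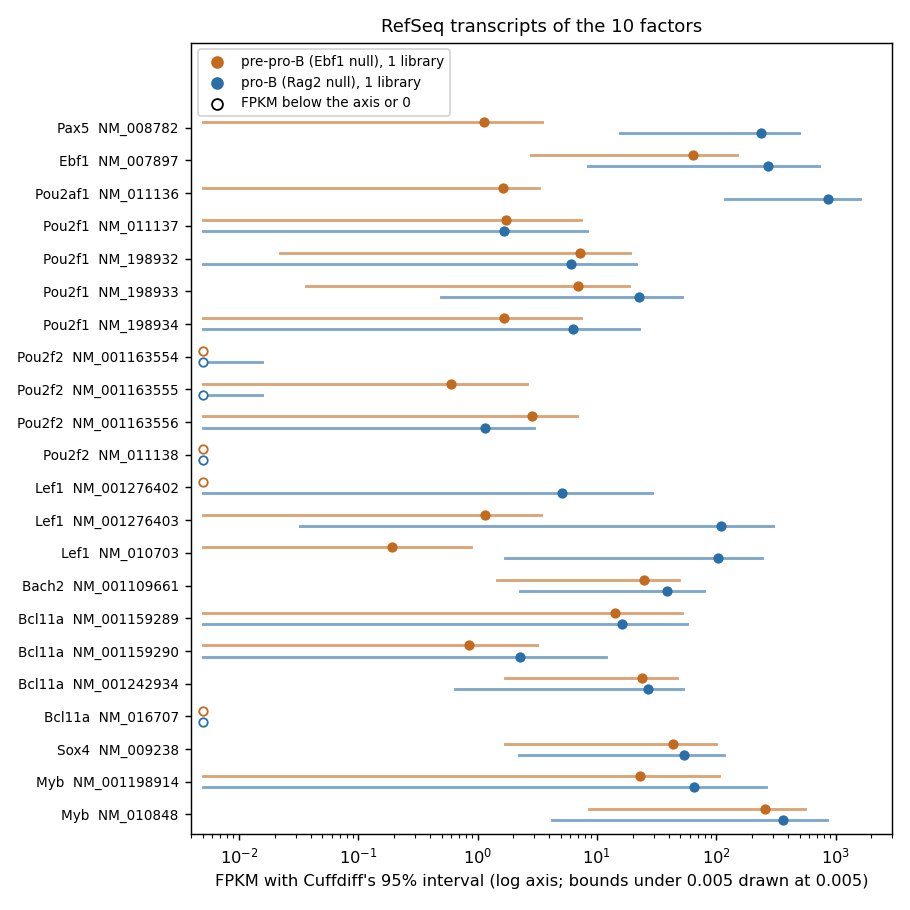
FPKM of the 22 transcripts on a log axis, with 1 point per library and lines for Cuffdiff's 95% interval; open circles are values of 0 or under 0.005. The intervals are apart for *Pax5*, *Pou2af1* and the *Lef1* transcript NM_010703 and overlap for the other 19.

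Over all 22 transcripts, the intervals were apart for 3, each higher in the pro-B library, and for 0 in the other direction. Of all 26968 protein-coding transcripts, 0.671% had intervals apart with the higher value in the pro-B library and 1.44% with the lower value there. Many of these transcripts were hardly present. Among the 12875 that reached an FPKM of 1 in a library, 180 were apart with the higher value in the pro-B library and 387 with the lower. Of the 18 transcripts of the factors at that level, 3 were apart with the higher value there and 0 with the lower. The intervals were wide: that of *Ebf1* in the pro-B library reached from 8.50 to 729. Of the 44 FPKM values of the 22 transcripts, 8 were below the level of 3 fragments, 4 of them listed at 0, and 4 lay above their own upper bound, all 4 worth less than 1 fragment. In the order of the 10 genes by FPKM within a library, the main transcripts of every pair of neighbours had overlapping intervals in both libraries. From high to low the order was *Myb*, *Ebf1*, *Sox4*, *Bcl11a*, *Bach2*, *Pou2f1*, *Pou2f2*, *Pou2af1*, *Lef1* and *Pax5* in the pre-pro-B library. It was *Pou2af1*, *Myb*, *Ebf1*, *Pax5*, *Lef1*, *Sox4*, *Bcl11a*, *Bach2*, *Pou2f1* and *Pou2f2* in the pro-B library.

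**Figure D4:**
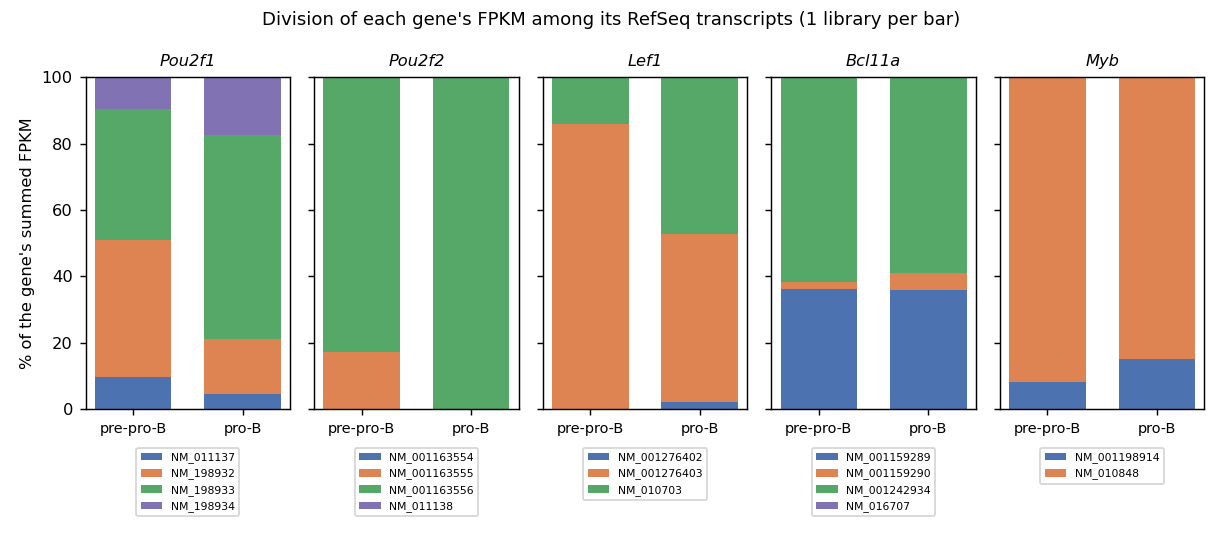
Percent of each gene's summed FPKM held by each RefSeq transcript, 1 bar per library, for the 5 factors with several transcripts. The largest shift is that of *Lef1*, where NM_010703 goes from 14.2% to 47.4%, and the *Bcl11a* bars are nearly alike.

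*Pax5*, *Ebf1*, *Bcl11a* and *Sox4* each carried nearly all the FPKM of their family in both libraries. *Pax5* made up 99.1% of the FPKM of the 9 Pax genes in the pre-pro-B library and 99.97% in the pro-B library, and *Ebf1* 100% and 99.95% of the 4 Ebf genes. *Bcl11a* made up 99.3% and 100% of its pair with *Bcl11b*, a T lineage factor, and *Sox4* 98.5% and 95.3% of the FPKM of *Sox4*, *Sox11* and *Sox12*. *Bach2* held 58.9% of its pair with *Bach1* in the pre-pro-B library and 78.6% in the pro-B library. *Bach1*, the broadly expressed relative, had an FPKM of 17.1 (3.59 to 30.7) and 10.5 (1.78 to 19.2).

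The Lef and Tcf family had a different main gene in each library. *Tcf7*, the Tcf-1 factor of early T cell development, had an FPKM of 38.9 (2.06 to 101) in the pre-pro-B library and of 0.118 (0 to 0.586) in the pro-B library, and these intervals did not overlap. *Tcf7* held 93.9% of the family's FPKM in the pre-pro-B library and 0.0533% in the pro-B library, while *Lef1* held 3.27% and 98.2%. The FPKM of *Lef1* and *Tcf7* together was 40.3 and 218. The summed T lineage markers given above were also higher in the pre-pro-B library, and their part in the *Tcf7* level was not tested. *Tcf7l2* had 1.18 and 3.74, and *Tcf7l1* did not exceed 0.173.

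In the Myb family the relatives stood far below *Myb* but differed more between the libraries. *Mybl1* had an FPKM of 0.710 (0 to 2.08) and 13.0 (0.355 to 26.2), and *Mybl2*, a gene of dividing cells, had 1.79 (0 to 6.26) and 11.7 (0.704 to 32.6). The intervals overlapped in both. *Myb* held 99.1% of the family in the pre-pro-B library and 94.6% in the pro-B library. Of the 21 relatives in all, 6 reached an FPKM of 1 in a library. Of these, 4 were called higher (*Mybl1*, *Mybl2*, *Sox12* and *Tcf7l2*), 1 was called lower (*Tcf7*) and 1 was within 2-fold (*Bach1*). The shares over all genes at that level were 12.2% higher and 19.1% lower. *Mybl1* and *Sox12* passed the filter only through the pro-B library and *Tcf7* only through the pre-pro-B library, which leaves 3 that passed in both. *Sox12* had an FPKM of 0.677 and 2.66. Another 7 of the 21 relatives were listed at 0 in both libraries.

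**Figure D5:**
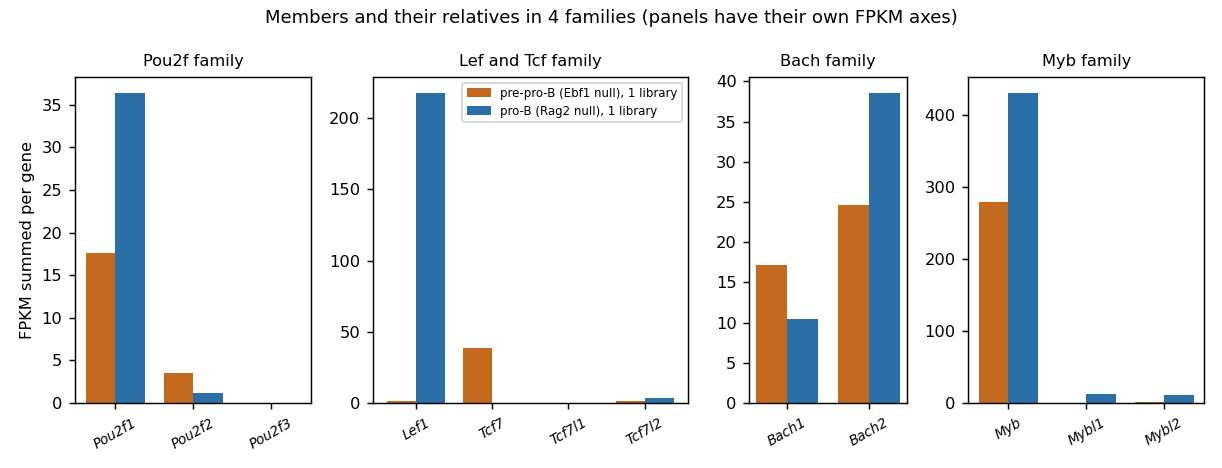
FPKM summed per gene for members and relatives of 4 families, 1 bar per library, with a separate axis from 0 in each panel. *Tcf7* is the tall bar of its family in the pre-pro-B library and *Lef1* in the pro-B library, whereas *Myb* and *Pou2f1* lead theirs in both.

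Of 13 listed partner proteins of the factors, 11 reached an FPKM of 1, of which 1 was called higher, 3 were called lower and 7 lay within 2-fold, with a median log2 difference of -0.61. These shares are near the 12.2% higher and 19.1% lower of all genes. Of the 11, 8 reached an FPKM of 1 in both libraries. *Zfp521* passed the filter only through the pro-B library and so could not be called lower. *Maff* and *Tle2* passed it only through the pre-pro-B library and so could not be called higher. *Zfp521*, a zinc finger protein known to antagonise Ebf1, had an FPKM of 0.0851 (0 to 0.321) in the pre-pro-B library and 5.59 (0.135 to 13.7) in the pro-B library. The corepressor *Tle3*, of the Groucho family that Pax5 and Lef1 bind, had a summed FPKM of 52.8 and 9.37, a log2 difference of -2.38. The other Tle genes of the list did not share this fall. *Tle4* had 9.10 and 17.9, *Tle5* 50.0 and 69.6 and *Tle2* 1.29 and 0.427, all within 2-fold, and *Tle1* was under 1 in both libraries. The small Maf genes *Maff* and *Mafk*, partners of Bach2, had 3.72 and 0.271, and 25.6 and 10.7. The beta-catenin gene *Ctnnb1*, partner of Lef1, had 184 and 120 and lay within 2-fold.

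The genes nearest to *Pou2af1* in the plane of log2(FPKM + 1) in the 2 libraries, among 10528 genes, were *Vpreb3* (distance 0.20 in log2 units), *Igll1* (0.29) and *Slamf6* (1.36). Those nearest to *Pou2f2* were *Sfn* (0.03), *Stx11* (0.04) and *Zfp658* (0.07). With 2 libraries a near place says only that both levels were alike.

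Transcripts of other genes share the locus of 3 factors. At *Pax5* the non-coding 5730488B01Rik had an FPKM of 0.0227 (0 to 0.0756) in the pre-pro-B library and 10.7 (0 to 52.5) in the pro-B library. At *Bach2* the non-coding *Bach2os* had 0.129 (0 to 0.25) and 0.628 (0 to 1.24). The *Pou2f1* locus is joined with that of *Cd247*, a T cell receptor chain, whose NM_001113391 had 6.40 (0 to 43.2) and 0.0378 (0 to 0.0703). Its NM_001113392 had 0.920 (0 to 6.89) and 1.96 (0 to 12.8), NM_031162 had 0.779 and 0.605, and NM_001113393 had 0.730 and was listed at 0 in the pro-B library. The libraries were strand-specific, and the reads shared between overlapping transcripts were divided by Cuffdiff's model.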

How the data were processed

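RNA-seq was measured in 1 pre-pro-B and 1 pro-B library, with about 90000000 single-end reads of 97 bp each by the labels. The authors trimmed reads, aligned them to mm9 with TopHat (1.5 in the submitters' processing notes; the study's parameter list names an earlier release) with strand-specific settings, and deposited FPKM per RefSeq transcript with 95% bounds from Cuffdiff 2.1.1, using multi-read and bias correction and no scaling between libraries. A further deposited table holds the authors' own fold changes, p-values and q-values, and none was used; its 2 FPKM columns were not used either.

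Of 26968 protein-coding transcripts, 26555 matched a gene symbol in a RefSeq table of GRCm38, used for names. FPKM were summed per gene, with a pseudocount of 1 and a filter of FPKM 1 in a library. Counts were approximated as FPKM times length and 90000000 reads; they, and the level of 3 fragments, cover counting error only. The members and lists were chosen with earlier results of these data known. Named list genes are the 4 with the largest log2 difference in each list, except 1 that is not reported here, the 3 nearest genes are given for the factors with the largest difference in each direction, and other genes of the lists were chosen for mention with their values known. The *Aes* entry of the partner list was matched under its present symbol *Tle5*. Of 4 erythroid markers, 3 were found and summed to 0.196 and 0.145. Alternatives were other pseudocounts, filters, TPM and median-ratio scaling, the main transcript of each gene and a 4-fold limit. Promoters came from RefSeq's table of GRCm38.p6 and were placed on mm9 by exact match, with GENCODE vM1 gene models. Scripts were tested on simulated data and ran in Python 3.11.15 with pandas 2.3.3, numpy 2.4.6, scipy 1.17.1 and matplotlib 3.10.9.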

Additional observations from a re-analysis of the deposited data

How the results depend on the processing

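Across 9 alternatives, the calls of 8 of the 10 factors stayed the same, and no factor changed direction. Several of the 9 could not alter a factor. Dropping the filter, requiring an FPKM of 1 in both libraries or requiring status OK left every value as it was, because all 10 already met these rules. The 4-fold limit changed no value, and it could not move a factor already within 2-fold. The main-transcript setting could not move the 5 factors with 1 transcript. *Pou2f1* lay within 2-fold as TPM (log2 0.94), and *Pou2f2* with its main transcript alone (-0.85), and neither passed the 4-fold limit. *Ebf1* ranged from 1.99 (TPM) to 2.16, *Pax5* from 6.82 to 7.72, *Pou2af1* from 8.36 to 9.05 and *Lef1* from 5.68 (main transcript) to 7.33; the highest values of the last 3 came without a pseudocount. The factors called lower numbered 1 in the report and 0 under each of the main-transcript and 4-fold settings. Rescaling to TPM shifted genes at 10 FPKM or more in both libraries by a median of -0.09, and median-ratio scaling by 0.09. Requiring an FPKM of 1 in both libraries leaves fewer genes: it gave 2 relatives higher and 0 lower, 0 partners higher, 10 activated targets higher of 10, 2 repressed genes lower of 2, and 918 genes higher and 998 lower of 8852. The 4-fold limit gave 2 relatives higher, 1 partner lower, 452 genes higher and 786 lower. Partners lower numbered 5 with a pseudocount of 0.1, without a pseudocount and as TPM; without a pseudocount 2 partners and 2074 of all genes were higher. The full counts are 1284 genes higher and 2013 lower. No paired analysis was possible because each cell type has 1 library, and for the same reason none could be left out. Depth limits the values under 3 fragments.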
